A study of Mus musculus with 6 samples.

Results

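The transforming growth factor beta (TGF-beta) genes described here are the 3 ligand genes *Tgfb1*, *Tgfb2* and *Tgfb3*, the 2 receptor genes *Tgfbr1* and *Tgfbr2*, the 3 Smad genes *Smad3*, *Smad4* and *Smad7*, and *Tgfbi*, a secreted matrix protein that takes its name from its induction by TGF-beta. They were chosen by name, through the match of gene identifiers to GENCODE M21 symbols, and make up 9 of the 34866 genes of the count table. All 9 passed the filter on low counts, which kept 16536 genes. Intestinal adenomas were taken from mice of the genotypes ApcMin/+ and Apc1322T/+, and 3 libraries were sequenced for each to compare the expression profiles of tumours driven by different truncations of Apc. All mice were on the C57BL/6J background and aged between 100 and 120 days, and each carried 1 mutant and 1 wild-type germline *Apc* allele. The ApcMin product lacks the central part of Apc almost entirely, whereas the longer Apc1322T product keeps some of its binding sites for β-catenin. No wild-type tissue was among the samples analysed here, and neither model has a change directed at a TGF-beta gene. The adenomas were excised whole, so that each library holds RNA of epithelium and stroma, and RNA extractions from 1 mouse were typically pooled into a library.

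TGF-beta ligands are secreted in a latent form that is stored in the matrix and must be activated before it binds the type II receptor Tgfbr2, which then phosphorylates the type I receptor Tgfbr1. The activated type I receptor phosphorylates Smad2 and Smad3, which enter the nucleus with the shared partner Smad4, while Smad7 is an induced inhibitor that acts on the receptor. In the intestine the pathway restrains growth of the epithelium, is lost in part of human colorectal cancers through mutation of TGFBR2 or SMAD4, and drives matrix production in fibroblasts.

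The libraries held between 23132328 and 33518145 counts, at which 3 counts, taken as the smallest signal that can be told from 0, correspond to between 0.0895 and 0.13 counts scaled to the library total (CPM), a limit that covers counting error only. *Apc* itself had a log2 CPM between 6.41 and 6.47 in the Apc1322T libraries and between 6.8 and 6.97 in the ApcMin libraries. In edgeR 0 of the cell type markers passed an adjusted p under 0.01. In DESeq2 the fibroblast marker *Pdgfra* (adjusted p = 0.00595) and the endothelial marker *Cdh5* (0.00712) passed, where 1.32% of all genes did. So did the squamous markers *Krt14* (DESeq2 adjusted p = 1.23e-30), *Krt4* (9.31e-09) and *Krt6a* (6.02e-11). The levels of the markers are given for the direction in which they moved. The 8 epithelial markers, among them *Epcam*, were lower in ApcMin adenomas in 8 of 8 cases, and their summed level ran from 10620 to 12570 CPM in ApcMin against 13030 to 16170 CPM in Apc1322T. The 8 fibroblast markers, among them *Pdgfra*, were higher in 8 of 8 cases, with summed levels of 1059 to 3408 CPM in ApcMin and 636 to 1585 CPM in Apc1322T. Summed levels of the smooth muscle list lay between 276 and 402 CPM in ApcMin and between 127 and 255 CPM in Apc1322T, those of the endothelial list between 167 and 237 and between 115 and 182 CPM, and those of the macrophage and neutrophil list between 95.8 and 267 and between 74.6 and 118 CPM. T cell markers summed to between 13.3 and 17.9 CPM in ApcMin and 8.95 and 32.0 CPM in Apc1322T, and squamous markers to between 64.6 and 88.7 and between 41.6 and 66.7 CPM. Of the squamous list *Sprr1a* had the highest counts and a log2 fold change of -0.48, while *Krt4* and *Krt6a* differed by 2.61 and 3.41. The mean log2 CPM of its 6 tested markers lay between 2.52 and 3.03 in ApcMin and between 1.07 and 1.26 in Apc1322T. No marker was at 0 in all libraries. Of the first gene of each list, *Epcam* differed by a log2 fold change of -0.39, *Pdgfra* by 1.0, *Myh11* by 0.88, *Pecam1* by 0.26, *Adgre1* by 1.03, *Cd3e* by -0.26 and the keratin gene *Krt14* by 2.51. Apc1322T replicate 1 stood closer to the ApcMin libraries than to its own genotype (mean of the pairwise Spearman's rho across genes 0.98 with the former and 0.976 with the latter). ApcMin replicate 2 likewise had a mean rho of 0.979 with the libraries of the other genotype and 0.978 with those of its own.

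Of the 9 TGF-beta genes, 0 passed an adjusted p under 0.01 in edgeR's quasi-likelihood test, in DESeq2 or in limma-voom, and the share of all genes tested that passed was 0.0% in edgeR and 1.32% in DESeq2. Without adjustment 3 of the 9 had a p under 0.05 in edgeR, as did 15.1% of all genes. These were *Tgfb2* and *Tgfbr1*, which were higher in ApcMin adenomas (7.49% of all genes in that direction), and *Smad4*, which was lower (7.6% of all genes). They were also the 3 genes for which the ranges of the genotypes were apart, as they were for 21.0% of all genes (11.0% higher and 9.96% lower in ApcMin). The log2 fold change (ApcMin over Apc1322T) was above 0 for 6 genes and below 0 for 3, with a median of 0.32 and a median of 0.017 over all genes tested. As the adenomas were analysed in bulk, fewer cells of a type and less RNA per cell cannot be told apart in any of these differences, and nothing states that the libraries came from separate mice, so p-values measure the spread between these samples.

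**Figure D1:**
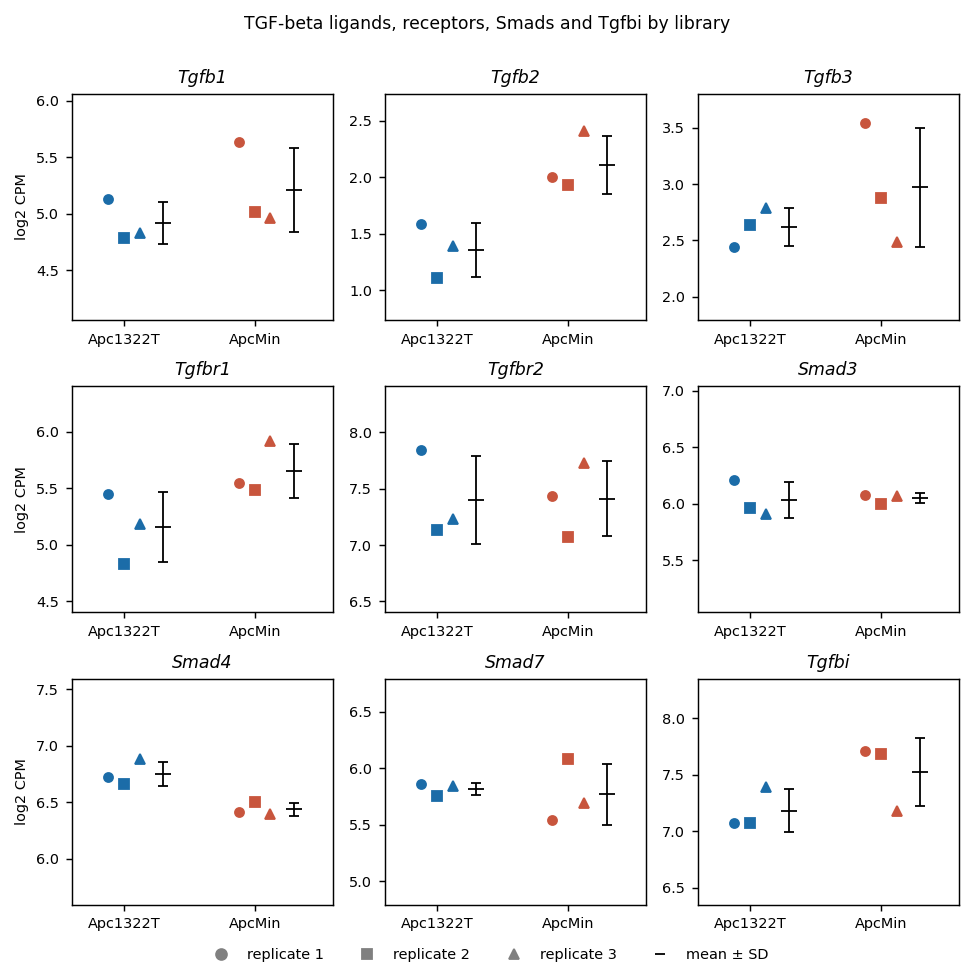
Log2 CPM (y axis, scaled for each gene) of the 9 TGF-beta genes in each Apc1322T (blue) and ApcMin (red) library, with the replicate number as the symbol and the mean ± SD (n = 3) as bars. The ApcMin libraries lie above all Apc1322T libraries for *Tgfb2* and *Tgfbr1* and below them for *Smad4*, and the groups overlap for the other 6 genes.

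*Tgfb1*, the ligand gene with the broadest expression in immune and stromal cells, lies on chromosome 7 (GRCm38, chr7:25687002-25705077, plus strand). Its log2 CPM was 5.13, 4.79 and 4.83 in Apc1322T replicates 1, 2 and 3 and 5.64, 5.02 and 4.96 in ApcMin replicates 1, 2 and 3. ApcMin replicate 1 was the highest, and the other ApcMin libraries lay below Apc1322T replicate 1. ApcMin adenomas differed by a log2 fold change of 0.32 ± 0.2 (SE), or 1.25-fold, with a 95% interval from -0.17 to 0.81 (edgeR adjusted p = 0.47). Without ApcMin replicate 1 it was 0.067. That library also held the highest summed level of fibroblast and of macrophage markers, and the part of these cells in the difference was not tested.

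*Tgfb2* (chr1:186622792-186705989, minus strand) encodes the ligand that depends most on the co-receptor Tgfbr3 for binding to Tgfbr2, and was the least abundant of the 9 genes. Its counts were 80, 44 and 58 in the Apc1322T libraries and 141, 95 and 166 in the ApcMin libraries, which gave log2 CPM values of 1.59, 1.11 and 1.39 against 2.0, 1.93 and 2.41. All ApcMin libraries lay above all Apc1322T libraries. Its log2 fold change of 0.77 ± 0.25 (SE), or 1.7-fold, was the largest of the 9 genes, with a 95% interval from 0.18 to 1.36. Its adjusted p was 0.287 in edgeR and 0.143 in DESeq2, and lay between 0.136 and 0.692 over all alternatives run. Leaving out single libraries gave log2 fold changes from 0.6 to 0.9, and the unadjusted p was under 0.05 in 4 of these 6 fits.

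*Tgfb3* (chr12:86056745-86079041, minus strand), the ligand best known from palate and mesenchymal development, had log2 CPM values of 2.44, 2.64 and 2.79 in Apc1322T and 3.54, 2.88 and 2.49 in ApcMin. ApcMin replicates 1 and 2 lay above all Apc1322T libraries, and ApcMin replicate 3 lay just above the lowest of them. This gave a log2 fold change of 0.41 ± 0.29 (SE) with a 95% interval from -0.28 to 1.11 (edgeR adjusted p = 0.505). It was 0.068 without ApcMin replicate 1 and 0.63 without ApcMin replicate 3.

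The 250 bases before the start of the ligand genes at both ends of the range of levels are shown for comparison, as given by RefSeq on GRCm38.p6, in the direction of the gene. The windows are chr7:25686752-25687001 (plus strand) for *Tgfb1* and chr1:186705990-186706239 (minus strand) for *Tgfb2*, and capitals mark GC boxes (GGGCGG or its complement CCGCCC, searched on both strands) and the TATA box (TATAAA, searched on the strand of the gene), whose matches did not overlap.
Tgfb1: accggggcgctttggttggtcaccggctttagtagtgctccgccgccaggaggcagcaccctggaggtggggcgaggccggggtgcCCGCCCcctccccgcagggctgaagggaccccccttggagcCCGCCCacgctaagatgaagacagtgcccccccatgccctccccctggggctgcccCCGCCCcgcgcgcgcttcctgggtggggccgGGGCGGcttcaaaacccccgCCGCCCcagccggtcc
Tgfb2: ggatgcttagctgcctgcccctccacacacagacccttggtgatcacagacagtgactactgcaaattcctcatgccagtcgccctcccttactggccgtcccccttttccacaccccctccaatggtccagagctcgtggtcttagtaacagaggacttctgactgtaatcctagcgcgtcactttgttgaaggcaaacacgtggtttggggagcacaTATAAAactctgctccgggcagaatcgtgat
The *Tgfb1* window held 5 GC boxes and 0 TATA boxes, with a GC content of 75.2% and 21 CpG dinucleotides. The *Tgfb2* window held 0 GC boxes and 1 TATA box, which begins at position -31 from the start, with a GC content of 53.6% and 8 CpG dinucleotides. Of the 32851 promoter windows of this length in the reference, 32.7% held a GC box and 7.59% a TATA box in these letters. Among the other genes, the windows of *Tgfbr1* (first of its starts) and *Smad3* each held 2 GC boxes and that of *Tgfbi* 1, while none was found for *Tgfbr2*. These matches describe the letters of each window and were not tested for function.

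Scaled to the length of the exons, *Tgfb1* made up most of the ligand RNA of both genotypes. Its share of the summed level of the 3 ligand genes, in CPM per kilobase, was 76.8%, 71.5% and 69.5% in the Apc1322T libraries and 70.6%, 69.6% and 70.8% in the ApcMin libraries. *Tgfb3* followed with 17.6%, 23.8% and 25.0% in Apc1322T and 24.5%, 23.4% and 18.8% in ApcMin. *Tgfb2* held 5.62%, 4.71% and 5.44% in Apc1322T and 4.87%, 6.99% and 10.4% in ApcMin. The order of the ligand genes was the same in all 6 libraries, and the shares of the genotypes overlapped for each gene. The mean share of *Tgfb2* was 7.42% ± 2.79 (SD, n = 3) in ApcMin and 5.26% ± 0.48 (SD, n = 3) in Apc1322T, a difference of 2.16 percentage points (two-sided exact permutation p = 0.3, 0.75 adjusted over the 3 shares). The differences for *Tgfb1* and *Tgfb3* were -2.25 points (exact permutation p = 0.5, adjusted p = 0.75) and 0.0884 points (exact permutation p = 1.0). The smallest p that this number of libraries can give is 0.1. Single libraries moved these differences: that of *Tgfb2* was 0.676 points without ApcMin replicate 3 and 3.44 without ApcMin replicate 1, and that of *Tgfb1* was -0.145 points without Apc1322T replicate 1. The shares also depend on the length used, and with the longest transcript the mean in Apc1322T and ApcMin was 83.5% and 81.8% for *Tgfb1*, 13.0% and 13.2% for *Tgfb3* and 3.49% and 4.98% for *Tgfb2*.

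*Tgfbr1* (chr4:47353222-47414931, plus strand), the type I receptor kinase that phosphorylates Smad2 and Smad3, had log2 CPM values of 5.45, 4.83 and 5.18 in Apc1322T and 5.55, 5.48 and 5.92 in ApcMin. The groups did not overlap, although ApcMin replicate 2 and Apc1322T replicate 1 lay next to each other. ApcMin exceeded Apc1322T by a log2 fold change of 0.48 ± 0.19 (SE), or 1.4-fold, with a 95% interval from 0.03 to 0.94. Its adjusted p was 0.315 in edgeR and 0.23 in DESeq2, between 0.0993 and 0.703 over all alternatives run. It ranged from 0.33 to 0.65 with a library left out, and its unadjusted p was under 0.05 in 2 of these 6 fits.

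*Tgfbr2* (chr9:116084293-116175360, minus strand), the type II receptor that binds the ligand first, had log2 CPM values of 7.84, 7.13 and 7.23 in Apc1322T and 7.43, 7.07 and 7.73 in ApcMin. Each genotype contributed a high library, Apc1322T replicate 1 and ApcMin replicate 3, and the groups overlapped throughout. With a log2 fold change of -0.0022 ± 0.24 (SE), the 95% interval ran from -0.59 to 0.58 (edgeR adjusted p = 0.996). Differences of either sign within this interval remain possible with these libraries. The sign of the log2 fold change turned with the setting, and the value was 0.26 without Apc1322T replicate 1.

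The balance of the receptor genes was compared after these values had been seen. The log2 difference of *Tgfbr2* over *Tgfbr1* in CPM was 2.39, 2.29 and 2.05 in Apc1322T and 1.88, 1.59 and 1.81 in ApcMin. It was smaller in all ApcMin libraries, with means of 1.76 ± 0.15 (SD, n = 3) and 2.24 ± 0.18 (SD, n = 3) and a difference of -0.48 (two-sided exact permutation p = 0.1, the smallest possible). With a library left out the difference lay between -0.58 and -0.4. *Tgfbr2* differed by -0.0022 and *Tgfbr1* by 0.48, so this ratio restates the difference of *Tgfbr1* and is not a separate result.

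*Smad3* (chr9:63646767-63757994, minus strand), the receptor-activated Smad that binds DNA directly, had the smallest range of the 9 genes over the 6 libraries (0.3), with log2 CPM values of 6.21, 5.96 and 5.91 in Apc1322T and 6.08, 6.0 and 6.07 in ApcMin. The ApcMin libraries lay within the range of the Apc1322T libraries. Its log2 fold change was 0.019 ± 0.1 (SE), with a 95% interval from -0.22 to 0.26 (edgeR adjusted p = 0.938), and it turned to -0.043 without Apc1322T replicate 3 and to -0.016 without Apc1322T replicate 2.

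*Smad4*, on chromosome 18, encodes the partner shared by the TGF-beta and bone morphogenetic protein branches. Its log2 CPM was 6.72, 6.66 and 6.88 in Apc1322T and 6.41, 6.5 and 6.4 in ApcMin. All ApcMin libraries lay below all Apc1322T libraries, and the spread within each genotype was small (SD 0.11 and 0.058). ApcMin differed by a log2 fold change of -0.32 ± 0.088 (SE), or 0.802-fold, with a 95% interval from -0.53 to -0.11. Its adjusted p was 0.279 in edgeR and 0.0767 in DESeq2, between 0.0767 and 0.692 over all alternatives run, so that the call of 0.01 was missed in each. With a library left out it ranged from -0.36 to -0.26, and the unadjusted p was under 0.05 in 6 of these 6 fits. *Smad4* differed in the direction of the epithelial markers, of which *Epcam* was lower by a log2 fold change of -0.39. The log2 difference of *Smad4* over *Smad3* was also chosen after its values were seen. This ratio was 0.51, 0.7 and 0.97 in Apc1322T and 0.33, 0.5 and 0.33 in ApcMin. Its mean difference was -0.34 with nearly touching ranges (two-sided exact permutation p = 0.1, the smallest possible). *Smad3* differed by 0.019, so the ratio mostly restates the difference of *Smad4* and is not a separate result.

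*Smad7*, also on chromosome 18, encodes the inhibitor that is induced by the pathway and directs the receptor to degradation. Its log2 CPM was 5.86, 5.76 and 5.84 in Apc1322T and 5.54, 6.08 and 5.69 in ApcMin. The ApcMin libraries lay on both sides of the closely grouped Apc1322T libraries. Between the means the log2 fold change was -0.031 ± 0.14 (SE), with a 95% interval from -0.37 to 0.31 (edgeR adjusted p = 0.928), and it was 0.076 without ApcMin replicate 1 and -0.2 without ApcMin replicate 2.

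*Tgfbi* (chr13:56609523-56639562, plus strand) encodes a matrix protein that binds collagens and integrins, and had log2 CPM values of 7.07, 7.07 and 7.39 in Apc1322T and 7.71, 7.68 and 7.18 in ApcMin. ApcMin replicates 1 and 2 lay above all Apc1322T libraries, and ApcMin replicate 3 between them. ApcMin differed by 0.36 ± 0.17 (SE) on the log2 scale, or 1.28-fold, with a 95% interval from -0.05 to 0.76 (edgeR adjusted p = 0.367). It remained above 0 with each library left out (0.26 to 0.51), and the unadjusted p was under 0.05 in 2 of these 6 fits.

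**Figure D2:**
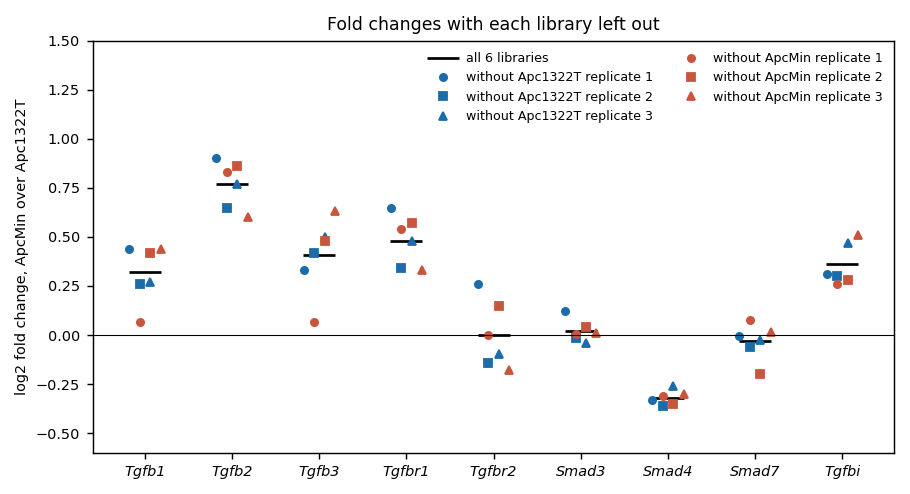
Log2 fold change (ApcMin over Apc1322T, y axis) of each of the 9 genes from all 6 libraries (black bar) and with 1 library left out (points, coloured by the genotype of the library left out). *Tgfb2* (0.6 to 0.9), *Tgfbr1* (0.33 to 0.65) and *Smad4* (-0.36 to -0.26) keep their sign in all 6 fits, while *Tgfbr2*, *Smad3* and *Smad7* cross 0.

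The number of genes whose libraries did not overlap also depended on single libraries. It was 5 of 9 without Apc1322T replicate 1, which added *Tgfb1* and *Smad3* to the 3 genes, where the share over all genes was 47.7%. It was also 5 without ApcMin replicate 3, which added *Tgfb3* and *Tgfbi*, where that share was 29.2%. The number of genes with an unadjusted p under 0.05 in edgeR was 3 with all libraries. It was 1 (*Smad4*) without Apc1322T replicate 2, where 6.92% of all genes had such a p. Without ApcMin replicate 1 it was 2 (*Smad4* and *Tgfb2*), where 11.8% did. Other fits kept 3 genes but not the same ones. They were *Smad4*, *Tgfb2* and *Tgfbi* without Apc1322T replicate 3 (8.63% of all genes). Without ApcMin replicate 3 they were *Smad4*, *Tgfb3* and *Tgfbi* (9.87%).

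Compared per kilobase of exon, the 9 genes covered a wide range of levels, with *Tgfb3* and *Tgfb2* at its lower end. *Tgfbi* was the highest with a mean of 44.0 CPM per kilobase over the 6 libraries (35.5 to 55.4), followed by *Smad4* with 26.2 (22.7 to 31.7) and *Tgfbr2* with 21.1 (16.4 to 28.0). *Smad7* and *Smad3* had nearly the same mean, 12.3 (10.3 to 14.9) and 11.9 (10.8 to 13.4), as did *Tgfb1* with 6.74 (5.48 to 9.86) and *Tgfbr1* with 6.63 (4.35 to 9.26). *Tgfb3*, at 2.11 (1.58 to 3.42), and *Tgfb2*, at 0.59 (0.361 to 0.906), were the lowest. The ranges of *Smad4* and *Tgfbr2*, of *Smad7* and *Smad3*, and of *Tgfb1* and *Tgfbr1* overlapped, and those of the other neighbours in this order did not. Among the 16479 genes tested that have an annotated length, *Tgfbi* stood at percentile 91.0, *Smad4* at 85.4 and *Tgfbr2* at 82.1, whereas *Tgfb3* stood at 33.4 and *Tgfb2* at 15.6. The place of *Tgfb1* depends on its length: divided by its longest transcript (2573 bases) in place of all its exons (5042 bases), its level was 13.2 per kilobase and its rank 4 in place of 6.

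**Figure D3:**
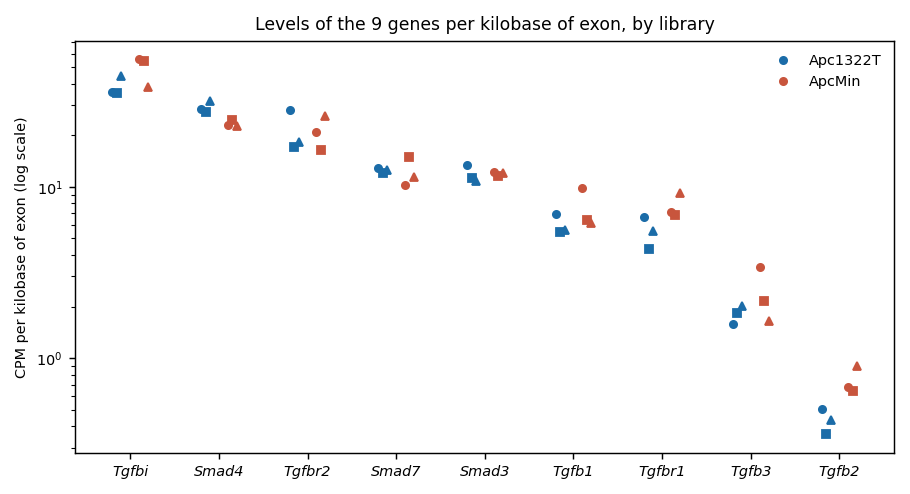
Level of the 9 genes in each library in CPM per kilobase of exon (y axis, log scale), ordered by the mean of the 6 libraries, with Apc1322T in blue and ApcMin in red. The levels run from 35.5 to 55.4 for *Tgfbi* down to 0.361 to 0.906 for *Tgfb2*.

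The genes were also set against the cell type markers of the same library, a comparison chosen after the data had been seen. Relative to the mean log2 CPM of the 8 epithelial markers, *Smad4* was -2.98, -3.34 and -3.19 in Apc1322T and -3.13, -3.23 and -2.95 in ApcMin. Its libraries now overlapped, with a mean difference of 0.07. These markers were lower in ApcMin, so that this reference raises the difference of every gene by the same amount. *Tgfb2*, *Tgfb3* and *Tgfbi* were higher in all ApcMin libraries on this scale, by 1.14, 0.73 and 0.73, where 28.7% of all genes had libraries that did not overlap. *Tgfbr1* differed by 0.88 on the same scale, but its libraries overlapped.

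Relative to the 8 fibroblast markers the differences were lower. This scale subtracts the same value from all genes of a library. As these markers were higher in ApcMin, it lowers the difference of every gene by the same amount. *Tgfb2* then differed by -0.18 and *Tgfbr1* by -0.43, both with overlapping libraries. All 9 genes had a mean difference below 0, which this shift fixes and which is not particular to them. *Tgfbr2* (-0.92), *Smad3* (-0.9) and *Smad4* (-1.24) were lower in all ApcMin libraries, where 20.4% of all genes had libraries that did not overlap. With 3 libraries of each genotype the exact permutation p of each of these non-overlapping differences was 0.1. The part of the cellular makeup in the differences of *Tgfb2*, *Tgfbr1* and *Smad4* was not tested.

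**Figure D4:**
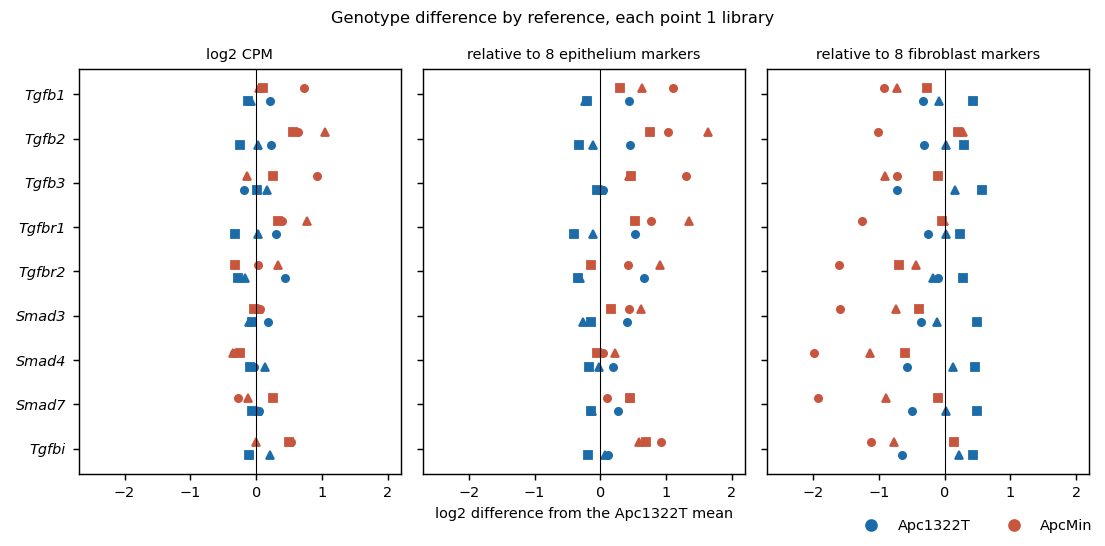
Log2 difference from the Apc1322T mean (x axis) of the 9 genes in each library, as log2 CPM (left), relative to the mean of 8 epithelial markers (middle) and relative to the mean of 8 fibroblast markers (right), with Apc1322T in blue, ApcMin in red and replicates 1, 2 and 3 as circle, square and triangle. *Smad4* is apart on the left and on the right and overlaps in the middle. *Tgfb2* is apart on the left and in the middle and overlaps on the right, and *Tgfbr1* is apart on the left only.

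For the 3 genes with the widest range over the 6 libraries, the genes with the most similar profile were found by the root mean square difference of log2 CPM centred on the mean of each gene. *Tgfb2* (range 1.3) was closest to *Glis2* (0.0382), *Lama5* (0.0682) and *Dmxl2* (0.071). *Lama5*, which encodes a laminin chain of basement membranes, had log2 CPM values of 6.24, 5.76 and 6.12 in Apc1322T and 6.64, 6.67 and 7.23 in ApcMin. *Tgfb3* (range 1.1) was closest to *Lcp2* (0.0676), *Arhgdib* (0.0693) and *Traf1* (0.0836), of which *Lcp2* and *Arhgdib* are known from blood cells. *Lcp2*, at 2.28, 2.35 and 2.62 in Apc1322T and 3.29, 2.81 and 2.31 in ApcMin, was highest in the same library as *Tgfb3*, ApcMin replicate 1. Its choice by similar profile makes this likely. *Tgfbr1* (range 1.09) was closest to *Dcp1b* (0.0538), *Uhrf1bp1* (0.0553) and *Gkap1* (0.0631). These are the nearest of all genes tested over 6 libraries that share their normalization, and are given as a description.

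The other genes of the pathway were read from lists by role, 71 genes in all, of which 69 were tested and *Mstn* and *Foxh1* were not. In edgeR and in limma-voom 0 of the 69 passed an adjusted p under 0.01, and in DESeq2 2 did, *Ltbp1* and *Ltbp3* (1.32% of all genes). An unadjusted p under 0.05 was found for 9 of 69 in edgeR (15.1% of all genes), all higher in ApcMin. Libraries did not overlap for 8 of 69 (21.0% of all genes), again all higher in ApcMin (11.0% of all genes in that direction). This number was 38 without Apc1322T replicate 1 (47.7% of all genes), 23 without ApcMin replicate 2 (31.7%) and 16 without ApcMin replicate 3 (29.2%). Relative to the epithelial markers, which raise the difference of every gene alike, it was 25, all higher in ApcMin (28.7% in either direction). Relative to the fibroblast markers, which lower the difference alike, it was 7, all lower in ApcMin (20.4% in either direction). An unadjusted p under 0.05 was found for 25 without Apc1322T replicate 1 (24.4% of all genes) and for 15 without ApcMin replicate 2 (12.6%). The log2 fold change was above 0 for 48 and below 0 for 21 genes, with a median of 0.28. Over all 16536 genes tested it was above 0 for 8661 and below 0 for 7875.

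The 15 genes of the latent complex, its storage and its activation had 14 log2 fold changes above 0 and a median of 0.65. This list shares a gene with the fibroblast markers. *Ltbp1*, which tethers the latent ligand to the matrix, had log2 CPM values of 3.8, 3.21 and 4.03 in Apc1322T and 4.72, 4.92 and 5.14 in ApcMin. All ApcMin libraries were higher, with a log2 fold change of 1.22 ± 0.23 (SE). Its adjusted p was 0.257 in edgeR and 0.000385 in DESeq2, the lowest of a range up to 0.692 over all alternatives run. *Ltbp3*, another latent TGF-beta binding protein chosen for mention after its values were known, had log2 CPM values of 4.51, 4.22 and 4.41 in Apc1322T and 5.03, 5.1 and 5.08 in ApcMin. Its log2 fold change was 0.69 ± 0.1 (SE), with an adjusted p of 0.257 in edgeR and 0.000164 in DESeq2, the lowest of a range up to 0.692. *Itgb8*, the integrin subunit that activates latent ligand on cells, was low but apart, with 1.19, 0.71 and 1.23 in Apc1322T and 2.4, 1.8 and 2.48 in ApcMin (log2 fold change 1.22 ± 0.28 SE, edgeR adjusted p = 0.257). *Furin*, the protease that cleaves the ligand precursors, had the lowest log2 fold change of the list, -0.026, and *Thbs1*, an activator with the highest level per kilobase of the list, one of 0.28 that became -0.14 without ApcMin replicate 1. Relative to the fibroblast markers, which moved the same way, *Ltbp1* differed by 0.32, *Ltbp3* by -0.23 and *Itgb8* by 0.26, each with overlapping libraries. All genes of the list other than *Ltbp1* and *Itgb8* lay below 0 on this scale, which lowers the difference of every gene alike.

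Of the other ligands and their soluble binders 6 of 8 tested had a log2 fold change above 0, with a median of 0.39. *Inha*, the inhibin alpha subunit, differed most with 1.32 ± 0.51 (SE) from 18, 6 and 8 counts in Apc1322T and 28, 21 and 53 in ApcMin. *Inhba*, which forms activin A, differed by 0.56 with overlapping libraries, the activin binder *Fst* by -0.37 and *Fstl1*, the highest of this list per kilobase and a fibroblast product, by 0.59. Without ApcMin replicate 1 the difference was 0.28 for *Inhba* and 0.29 for *Fstl1*, which was 1.1 without Apc1322T replicate 1, and without ApcMin replicate 3 it was 0.87 for *Inha* and -0.19 for *Fst*. Among the 7 other receptors and co-receptors (median 0.22), *Tgfbr3*, the co-receptor that presents Tgfb2 to Tgfbr2, had log2 CPM values of 1.96, 1.52 and 2.3 in Apc1322T and 2.61, 2.82 and 3.55 in ApcMin. All ApcMin libraries were higher, as for its ligand gene *Tgfb2*, with a log2 fold change of 1.1 ± 0.33 (SE, edgeR adjusted p = 0.279). The activin receptor genes *Acvr2a* and *Acvr1b* differed by -0.29 and -0.18, both with overlapping libraries.

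The other Smads, adaptors and nuclear partners had a median of -0.069 over 8 genes tested, with 6 below 0. *Smad2*, the other receptor-activated Smad of the branch, had a log2 fold change of -0.045 ± 0.079 (SE), with log2 CPM values of 5.4, 5.38 and 5.29 in Apc1322T and 5.29, 5.28 and 5.36 in ApcMin. The coactivator gene *Ep300* differed by -0.15 and the deubiquitinase gene *Usp9x* by -0.11, both with overlapping libraries. *Tgfb1i1* (Hic-5), a focal adhesion protein of smooth muscle and fibroblasts, differed by 0.86 ± 0.26 (SE) without overlap (edgeR adjusted p = 0.279). The 13 inhibitors had a median of 0.038, with 8 above 0 and 5 below. *Tgif2*, a nuclear corepressor of Smads, was higher in all ApcMin libraries by 1.02 ± 0.29 (SE, edgeR adjusted p = 0.279), whereas the feedback inhibitors *Skil*, *Pmepa1* and *Bambi* differed by -0.23, -0.03 and 0.39 and *Fkbp1a*, which binds the type I receptor, by 0.038, each with overlapping libraries.

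Genes known to be induced by TGF-beta had a median of 0.76 over 18 genes, with 13 above 0 and 5 below. An unadjusted p under 0.05 in edgeR was found for 2 of 18 (15.1% of all genes). These were the smooth muscle genes *Acta2* (0.59) and *Tagln* (0.63), higher in ApcMin (7.49% of all genes in that direction). The list shares 5 genes with the fibroblast and smooth muscle markers, which had a median of 0.84. The other 13 had a median of 0.7 with 0 at an unadjusted p under 0.05 (15.1% of all genes). *Postn*, a matrix protein of activated fibroblasts, differed by 1.12 ± 0.5 (SE), *Col1a1*, the highest of the list per kilobase, by 0.84 ± 0.62 (SE), and *Cdkn2b*, a cell cycle inhibitor induced in epithelium, by -0.44 ± 0.3 (SE), with overlapping libraries for each. Without ApcMin replicate 1 the log2 fold change of *Postn* was 0.47 and that of *Col1a1* 0.0052, and *Col1a1* was 1.36 without Apc1322T replicate 1. That of *Cdkn2b* was -0.22 without ApcMin replicate 3. Relative to the fibroblast markers, a scale that lowers the difference of every gene alike, *Postn* differed by 0.06 and *Cdkn2b* by -1.38. Relative to the epithelial markers, which raise it alike, *Postn* differed by 1.38 and *Cdkn2b* by -0.07, both with overlapping libraries.

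**Figure D5:**
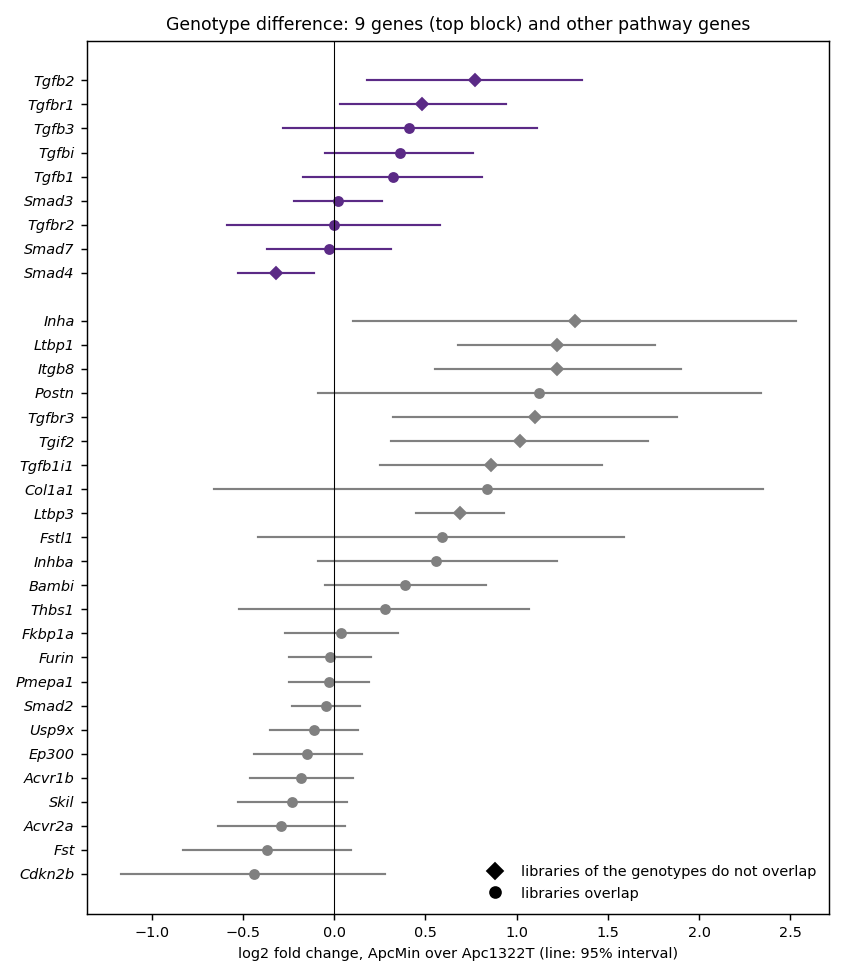
Log2 fold change, ApcMin over Apc1322T (x axis), with its 95% interval (line) for the 9 TGF-beta genes (purple) and the named genes of the pathway (grey), with diamonds where the libraries of the genotypes do not overlap and circles where they do. *Tgfb2*, *Tgfbr1* and *Smad4* are the diamonds of the upper block, and those of the lower block all lie above 0, from *Ltbp3* (0.69) to *Inha* (1.32).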

How the data were processed

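RNA-seq of 6 adenoma libraries, 3 ApcMin and 3 Apc1322T, was analysed. Per the paper's methods and the labels, reads came from a strand-specific kit and were single-end with a length of 50 bases, and all libraries shared 1 lane. Salmon was run by the authors on the transcripts of GRCm38, and they deposited its estimated counts, summed to genes and not normalised, of which 54.4% of the values above 0 are not whole numbers. Estimated counts divide reads shared by similar transcripts.

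Before testing, each value was rounded to a whole number. Genes were matched to GENCODE M21 (34652 of 34866 have a symbol) and filtered with filterByExpr (minimum count 10, minimum total 15), normalised by TMM and compared with edgeR 4.0.16 (robust quasi-likelihood test, Benjamini-Hochberg adjustment over 16536 genes, threshold 0.01) in R 4.3.3. Standard errors and 95% intervals derive from the F statistic. Log2 CPM used a prior count of 2. Levels per kilobase used the union of exons. DESeq2 1.42.0, limma-voom (limma 3.58.1), other scalings and filters and each library left out were alternatives. The procedures were tested on simulated counts. Each sample was grouped by its label.

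Members, lists, tests and alternatives were chosen with earlier results of these data known. Named are the 9 genes, in each of 6 pathway lists the gene with the largest increase, the largest decrease and the highest level, *Smad2*, *Tgfbr3*, *Inhba*, *Ltbp1*, *Skil*, *Pmepa1* and *Bambi*, the 3 nearest profiles of the 3 genes with the widest range, and the first marker of each of 7 lists. *Ltbp3*, *Acta2*, *Tagln*, *Mstn*, *Foxh1*, *Cdh5*, *Krt4*, *Krt6a*, *Sprr1a*, the receptor and Smad ratios and the values relative to markers were added after the values were seen. The promoter windows are RefSeq's, and had an entry for 6 of the 9 genes. Another gene that the rule names is not reported here. The other experiments of the study were not analysed here.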

Additional observations from a re-analysis of the deposited data

How the results depend on the processing

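Of 126 refits of the 9 genes (14 alternatives each), 115 kept the direction and 11 turned it, and 6 genes (*Tgfb1*, *Tgfb2*, *Tgfb3*, *Tgfbr1*, *Smad4* and *Tgfbi*) never turned. No alternative brought any of the 9 past an adjusted p of 0.01. The log2 fold change of *Tgfbr2* became 0.05 with upper quartile scaling, 0.0085 with limma-voom, 0.0062 with at least 10 counts in every library and 0.0082 with the replicate block, and ran from -0.18 to 0.26 with a library left out. That of *Smad3* ran from -0.043 to 0.12 and that of *Smad7* from -0.2 to 0.076 with a library left out, and *Smad7* was 0.026 with upper quartile scaling. Under the same scaling *Furin* became 0.03, *Smad2* 0.012 and *Pmepa1* 0.026. With a library left out *Furin* ran from -0.087 to 0.023, *Thbs1* from -0.14 to 0.54, *Fkbp1a* from -0.085 to 0.11 and *Pmepa1* from -0.069 to 0.04. The difference in the share of *Tgfb3* among the ligand genes ran from -2.2 to 1.82 points, and the number of the 9 genes whose libraries do not overlap from 3 to 5. DESeq2 called 2 of the other pathway genes (0 in edgeR) and 218 of all genes (0 in edgeR), where an adjusted p under 0.05 and no filter on low counts each gave 1 and leaving out a library 0 to 1. Leaving out a library changed the samples and genes of a fit, and other filters changed its genes. DESeq2, limma-voom, upper quartile scaling and the replicate block used the same samples and genes. The cause of these shifts was not tested.

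The replicate numbers recur in both genotypes, and deviations of same-numbered libraries correlated at -0.0139, 0.164 and -0.286. Those of unlike-numbered libraries ran from -0.359 to 0.329. As deviations from a genotype mean sum to 0, these values can neither show nor exclude pairing. The numbers were not used to pair the samples in the main fit. With the replicate block 0 of the 9 genes, 0 of the other pathway genes and 0 of all genes were called, and 2113 genes had an unadjusted p under 0.05 (2495 without the block), among them the same 3 of the 9 and 23 of the other pathway genes (9 without).

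The lowest count of the 9 genes was 44, for *Tgfb2*. The 95% intervals given in the text are for single genes and are not adjusted. Where an interval spans 0, the direction of the difference was not resolved with 3 libraries of each genotype. Those of *Tgfb2*, *Tgfbr1* and *Smad4* do not span 0, but the edgeR adjusted p of these genes was 0.287, 0.315 and 0.279.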
